A study of Rattus norvegicus with 110 samples.

Results

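A set of 69 genes was examined, out of 31998 gene identifiers measured in rat liver and kidney, that vehicle liver and kidney held at similar levels, that low-dose carbon tetrachloride (CCl4) left in place in liver, and that were lower in liver after the high dose. The genes were chosen on CPM (a gene's count divided by the library total and multiplied by 1000000), averaged over libraries. A member had a mean of at least 5 CPM in vehicle liver, less than a 4-fold difference from kidney, less than 0.3 log2 units between low dose and vehicle, and a log2 ratio of high dose to vehicle below -0.7. Of 8828 identifiers expressed at 5 CPM or more in vehicle liver, 7442 were within 4-fold of kidney, 6519 of those stayed within the low-dose limit, and 69 of those fell below the high-dose limit. The working name of the set called these genes lost, which the counts do not bear out. Members kept between 21.1% and 61.5% of their vehicle level at the high dose, with a median of 51.2%, and no member had a count of 0 in any library, the lowest being 5.

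The libraries came from 83 livers and 27 kidneys of F2 male Sprague Dawley rats, an outbred strain, in a study of whether liver injury in male ancestors alters the response of their descendants. F2 rats received olive oil (vehicle, 27 livers), 8% CCl4 (low dose, 28 livers) or 50% CCl4 by volume in olive oil (high dose, 28 livers) by gavage at 0.5 mL/kg, 3 times a week for 6 weeks, and tissue was taken on day 39. Cohort A had no treated ancestor, the F1 sire of cohort B, the F0 grandsire of cohort C and both in cohort D had been given 50% CCl4 over 6 weeks with 2 weeks of recovery before mating, and all dams were untreated. Each of the 12 liver groups held 7 rats, except the vehicle group of cohort C with 6, and kidney was measured only in the 4 vehicle groups. The F2 rats came from 34 litters descended from 17 F0 males and were killed on 4 dates. The livers of a group were separate animals, but over the 83 livers many shared a litter or an F0 grandsire. Library totals ran from 31638559 to 51343589 counts in liver and from 21961746 to 35055218 in kidney. The vehicle liver of cohort C with replicate number 004 stood apart, with a first principal component score of -41.6 among vehicle livers against -12.2 for the next library. It was kept, and 62 of the 69 members met the rule without it.

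CCl4 is a classic liver toxin: cytochrome P450 enzymes of hepatocytes around the central vein turn it into a radical that kills those cells, and repeated dosing leads to inflammation and fibrosis. Genes expressed alike in liver and kidney include general metabolic and signalling genes rather than the secreted plasma proteins and P450 enzymes for which the liver is known. Identifiers were paired with symbols only where the study's own lists of genes gave both, which covered 1489 identifiers and 10 members: Gucy1b2, Paqr7, Eml5, Vwce, Samd11, Oaf, Tent5c, Efna5, Efnb2 and Fahd1. The other 59 members had no symbol in those lists, so the 10 are not a fair sample of the 69. In whole tissue, fewer cells of a type and less RNA per cell cannot be told apart.

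RefSeq promoters (rat assembly GRCr8) were found for 7 of the 10 members with a symbol, and the 250 bases before the start were searched on both strands for 16 short motifs. They are shown because promoters are the sequence such genes could share and the rule did not use. The CCAAT box (CCAAT, or ATTGG on the other strand) was present in 4 of the 7, in Gucy1b2, Oaf, Efnb2 and Fahd1, and in 34.02% of all 33469 promoters of that length. The GC box GGGGCGGGG was present in Eml5 and Oaf and in 8.999% of all promoters. None of the 7 held the other 14 motifs, of which 6 are bound by factors of hepatocytes: HNF1 (GTTAATNAT, in 0.666% of all promoters), HNF4 (CAAAGTCCA, 0.338%), DR1 (AGGTCANAG, 1.92%), ERR or LRH1 (TCAAGGTCA, 0.388%), C/EBP (TTGCGCAA, 0.14%) and FOXA (TGTTTAC, 3.21%). The remaining 8 were the D-box (TTATGTAA, 0.828%), NRF1 (GCGCANGCG, 5.09%), ETS (CCGGAAG, 7.27%), YY1 (AAGATGGCG, 0.693%), the TATA box (TATAAA, 12.9%), the E-box (CACGTG, 5.59%), AP-1 (TGANTCA, 6.34%) and ZF5 or ZBTB33 (CTCGCGAG, 0.625%). These letters are a description, not shown to be binding sites. Capitals mark CCAAT or ATTGG in the lines that follow, from 5′ to 3′ along the gene's strand. The windows are chr15:40845464-40845713 (minus strand) for Gucy1b2, chr5:151992599-151992848 (plus strand) for Paqr7, chr16:87484965-87485214 (plus strand) for Efnb2 and chr10:14379498-14379747 (minus strand) for Fahd1.
Gucy1b2: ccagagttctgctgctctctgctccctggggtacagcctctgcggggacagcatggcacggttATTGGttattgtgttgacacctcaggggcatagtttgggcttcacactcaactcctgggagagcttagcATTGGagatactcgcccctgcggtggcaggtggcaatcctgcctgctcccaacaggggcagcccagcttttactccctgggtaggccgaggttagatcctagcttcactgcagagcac
Paqr7: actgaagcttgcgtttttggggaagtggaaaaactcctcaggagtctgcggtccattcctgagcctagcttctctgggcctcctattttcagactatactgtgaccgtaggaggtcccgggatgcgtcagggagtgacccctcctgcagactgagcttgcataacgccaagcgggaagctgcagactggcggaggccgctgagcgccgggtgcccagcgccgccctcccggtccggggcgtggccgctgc
Efnb2: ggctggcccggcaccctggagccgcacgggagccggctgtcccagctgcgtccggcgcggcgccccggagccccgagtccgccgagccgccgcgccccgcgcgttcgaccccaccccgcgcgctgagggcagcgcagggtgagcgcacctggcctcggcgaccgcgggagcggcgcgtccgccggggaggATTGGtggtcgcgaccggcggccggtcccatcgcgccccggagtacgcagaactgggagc
Fahd1: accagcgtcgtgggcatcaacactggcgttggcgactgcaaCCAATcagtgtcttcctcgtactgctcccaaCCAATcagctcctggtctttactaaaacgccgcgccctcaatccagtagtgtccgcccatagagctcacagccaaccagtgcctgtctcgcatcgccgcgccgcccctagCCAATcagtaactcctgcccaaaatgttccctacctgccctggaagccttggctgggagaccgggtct
Fahd1 held the box at 3 places, Gucy1b2 at 2, Efnb2 at 1 and Paqr7 at none, and the windows ranged from 58.0% G and C in Gucy1b2 to 80.4% in Efnb2, against a median of 51.2% over all promoters.

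The fall at the high dose ranged over the members from -2.25 to -0.70 on the log2 scale of mean CPM, with a median of -0.97. These values chose the members and are a description with no test. By comparison, 324 of the 8828 expressed genes, or 3.67%, fell below -0.7. The log2 ratio was -1 or lower in 28 members and -2 or lower in 2. At the low dose the same members lay between -0.30 and 0.22, with 48 below vehicle and 21 above. In vehicle animals 41 members were higher in liver than in kidney and 28 lower, with 40 within 2-fold. In high-dose liver 47 of the 69 lay below the vehicle kidney, 9 of them by 4-fold or more.

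**Figure D1:**
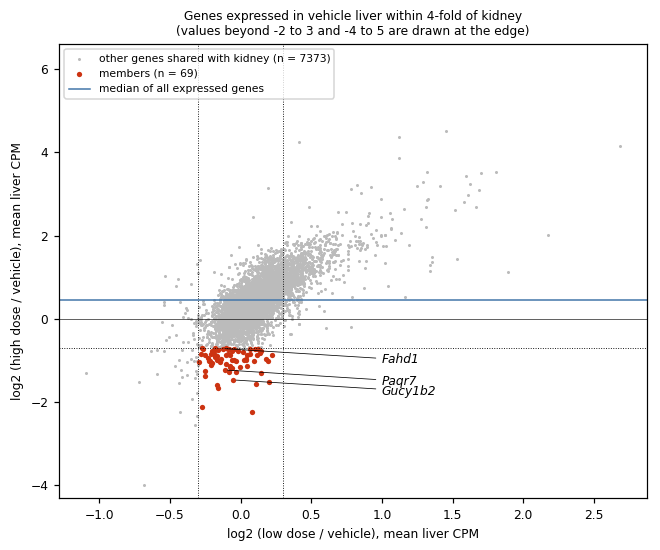
Each point is 1 of the 7442 genes expressed in vehicle liver within 4-fold of kidney, placed by its log2 ratio of low dose to vehicle (x) and of high dose to vehicle (y) in mean liver CPM. Dotted lines are the limits of the rule, and the blue line is the median of all expressed genes at the high dose, 0.46. The 69 members (red) fill the sparse region under most shared genes.

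How many other shared genes fell depended on the scaling. On the CPM scale, of the 6519 shared genes that the low dose left in place, 69 (1.06%) fell by more than 0.7 and 1316 (20.2%) rose by as much. After TMM scaling, which equalises the bulk of the genes between libraries, the same limits left 7427 genes, of which 398 (5.36%) fell and 273 (3.68%) rose by more than 0.7. On the CPM scale, among 527 genes at least 4-fold higher in liver than in kidney and likewise unmoved at the low dose, 147 (27.9%) fell, and among 437 at least 4-fold higher in kidney 16 (3.66%) fell. The median of all expressed genes itself moved by 0.46 at the high dose on the CPM scale, and by -0.11 after TMM scaling. Measured from the median gene, the members therefore fell by 1.16 to 2.71 log2 units. After TMM scaling the fall of the members ran from -2.65 to -1.21. TMM scaling lowered the median gene by 0.57, so that genes chosen below -0.7 on CPM stayed below 0 followed from the choice. The other parts of the rule were more sensitive to scaling. After TMM scaling 25 members were beyond 0.3 at the low dose, where 65 of 69 lay below vehicle and the median was -0.25, and 20 were outside 4-fold between the organs, with 60 of 69 higher in liver.

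The largest fall among the members with a symbol was that of Gucy1b2. This gene, a beta subunit of the soluble guanylate cyclase family that makes cyclic GMP in response to nitric oxide, measured 16.2, 29.6 and 44.2 CPM (lowest, median and highest library) in vehicle liver. It measured 15.2, 30.8 and 40.7 CPM at the low dose and 3.15, 10.01 and 26.6 CPM at the high dose. The vehicle and low-dose ranges nearly coincided, and 23 of 28 high-dose livers lay below the lowest vehicle liver. Its mean went from 30.7 ± 6.98 CPM (SD, n = 27) to 11.1 ± 6.05 CPM (SD, n = 28), a log2 ratio of -1.47, and vehicle kidney held 39.9 ± 11.4 CPM (SD, n = 27).

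Paqr7, a membrane receptor for progestins, measured 72.5, 108 and 230 CPM in vehicle liver, 51.5, 112 and 187 CPM at the low dose and 20.4, 42.2 and 116 CPM at the high dose. Of the 28 high-dose livers, 24 were below every vehicle liver, yet the highest high-dose liver exceeded the vehicle median. The log2 ratio was -1.23, and the kidney mean of 247 ± 33.9 CPM (SD, n = 27) was 2.09-fold the vehicle liver mean.

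Of the ephrins, which are cell-bound ligands of Eph receptors, Efna5 is anchored by a lipid and Efnb2 spans the membrane. Efnb2 measured 5.51, 9.03 and 11.7 CPM in vehicle liver, 6.61, 9.95 and 12.9 CPM at the low dose and 2.90, 5.31 and 8.66 CPM at the high dose, with 16 of 28 high-dose livers under the vehicle range. Its log2 ratio was -0.72, and kidney held 28.6 ± 3.72 CPM (SD, n = 27), 3.13-fold the vehicle liver mean. Efna5 varied more between vehicle livers, with 3.14, 9.22 and 17.9 CPM, and measured 2.17, 5.29 and 9.92 CPM at the high dose. Only 2 of 28 high-dose livers lay under the vehicle range of Efna5, whose log2 ratio was -0.84.

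Fahd1, a mitochondrial enzyme that cleaves acylpyruvates and decarboxylates oxaloacetate, went from 57.2 ± 16.1 CPM (SD, n = 27) in vehicle liver to 34.9 ± 9.80 CPM (SD, n = 28), a log2 ratio of -0.71, and 13 high-dose livers were below the vehicle range. Tent5c, which adds poly(A) tails to mRNA, measured 3.94, 9.81 and 17.7 CPM in vehicle liver and 2.31, 5.32 and 8.36 CPM at the high dose. The high-dose values of Tent5c sat inside the lower end of the vehicle range, with 2 of 28 below it and a log2 ratio of -0.86.

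Oaf, a secreted protein named for a fly gene, went from 122 ± 40.9 to 67.3 ± 18.2 CPM (SD, n = 27 and 28), a log2 ratio of -0.86, with 6 high-dose livers below the vehicle range. Vwce, a protein with von Willebrand factor C and EGF domains, had a log2 ratio of -1.003, Samd11, a protein with a SAM domain, -0.97, and Eml5, of a family of microtubule-binding proteins, -1.02. Below the lowest vehicle liver lay 20, 17 and 4 of 28 high-dose livers for Vwce, Samd11 and Eml5. Eml5, Samd11 and Oaf were more than 2-fold higher in vehicle liver than in kidney on the CPM scale, and passed 4-fold after TMM scaling, with log2 ratios of 2.35, 2.15 and 2.31.

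**Figure D2:**
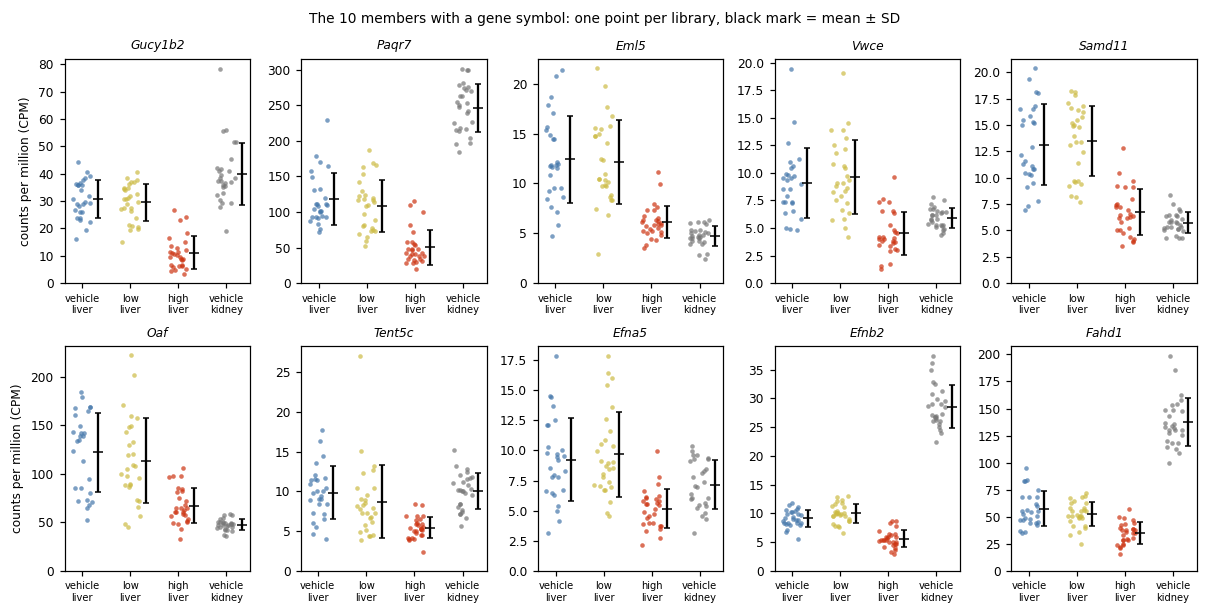
CPM in each library (points) and mean ± SD (black marks) for the 10 members with a symbol, in vehicle, low-dose and high-dose liver and in vehicle kidney. Vehicle and low-dose livers overlap throughout, and the high-dose means of Gucy1b2 and Paqr7 lie furthest below their own vehicle means, at 36.2% and 42.7% of them.

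The largest falls belonged to identifiers without a symbol. ENSRNOG00000025648.3 measured 181, 513 and 1048 CPM in vehicle liver, 153, 578 and 1022 CPM at the low dose and 3.19, 46.5 and 613 CPM at the high dose, a log2 ratio of the means of -2.25. The high-dose livers of this gene spanned from 3.19 CPM to above the vehicle median, with an SD of 2.06 log2 units against 0.64 in vehicle liver and 0.24 in kidney. ENSRNOG00000020467.4 followed with -2.12, from 18.2 ± 7.50 CPM (SD, n = 27) to 4.20 ± 2.25 CPM (SD, n = 28), and 22 of 28 high-dose livers were below the vehicle range. At the other end, the 3 members just inside the limit had log2 ratios of -0.707, -0.704 and -0.701, and the 3 genes just outside had -0.695, -0.694 and -0.691. In 7 of the 69 members, none with a symbol, every high-dose liver lay below every vehicle liver, which held for 43 of the 8828 expressed genes (0.487%). The same livers chose the members, so a higher share among them follows from the choice.

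The fall is given by cohort and by necropsy date as a description with no test. The same livers chose the members, so values below 0 are largely set by that choice. The median over members was -0.96, -1.05, -0.85 and -0.91 in cohorts A to D, and 68, 69, 69 and 69 of 69 members were below 0. The exception was in cohort A, where the smallest value was 0.04. Applied within a single cohort, the rule kept 14 members in all 4 cohorts, Gucy1b2 among them, 26 in 3, 16 in 2 and 11 in 1, and 2 in none. On each of the 4 necropsy dates all 69 members lay below 0, with medians of -0.98, -1.01, -0.92 and -0.88. Low-dose values varied more within cohorts than the average shows: 13, 11, 21 and 12 members were beyond 0.3 in cohorts A to D. The count of 21 in cohort C was 13 without its vehicle liver that stood apart, number 004. Of the members with a symbol there, Vwce measured 0.45, Eml5 0.42, Efna5 0.35 and Tent5c -0.34 at the low dose. Without that liver these were 0.32, 0.29, 0.17 and -0.33.

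**Figure D3:**
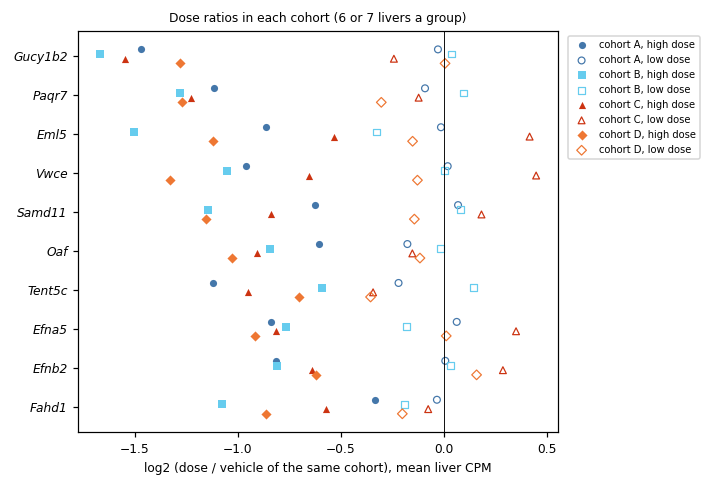
Log2 ratio of mean liver CPM against the vehicle group of the same cohort, for the high dose (filled) and the low dose (open), in the 10 members with a symbol. All high-dose ratios are below 0, from -1.67 for Gucy1b2 in cohort B to -0.34 for Fahd1 in cohort A, while low-dose ratios fall on both sides of 0.

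Livers differed in how far the whole set fell. The summed level of the 69 members was 18276 to 24851 CPM in vehicle liver, 16329 to 22768 CPM at the low dose and 16257 to 23261 CPM in kidney. At the high dose it ran from 4654 to 17157 CPM with a median of 9974 CPM. The high range overlapped the low-dose range only at its top and stayed under the vehicle range. The number of members below their own high-dose median ranged from 2 of 69 in the liver of cohort C with replicate number 007 to 57 of 69 in that of cohort A with number 009. The SD across high-dose libraries exceeded that of vehicle liver in 54 of 69 members, against 6180 of 8828 expressed genes (70.0%). The median SD of the members was 0.50 log2 units at the high dose, 0.34 in vehicle liver and 0.24 in kidney. Over all expressed genes it was 0.34 at the high dose and 0.28 in vehicle liver, so a wider spread was not particular to the members. The livers of cohort C with number 007 and cohort A with number 010 stood apart from their groups at 16980 and 15112 CPM. They were picked for a high summed level, so leaving them out deepens the summed fall by definition. Without them the median fall was -1.08 in cohort A and -1.001 in cohort C. All 69 genes still met the rule, which is no independent check. At the other end, the high-dose liver of cohort D with number 007 had the lowest summed level, 4654 CPM against 7174 CPM in the next, and the lowest first principal component score among high-dose livers, -42.0 against -28.6. Without it the median fall over all cohorts was -0.94 and that of cohort D -0.82, and 60 of the 69 met the rule.

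**Figure D4:**
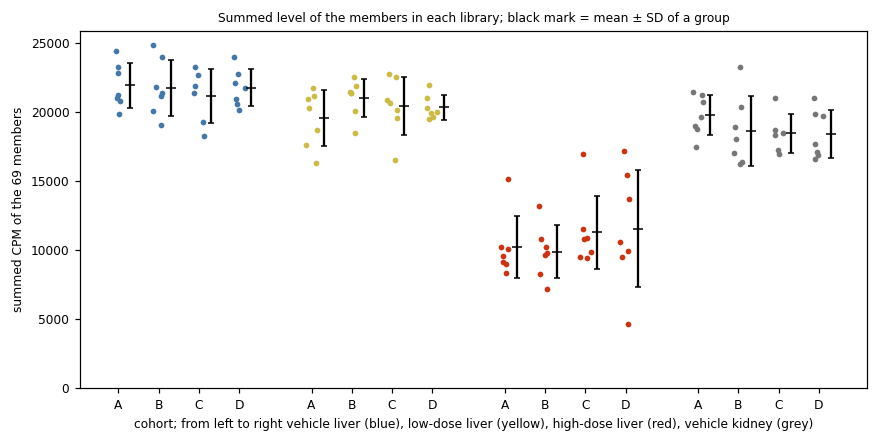
Summed CPM of the 69 members in each library (points), by organ, dose and cohort, with the mean ± SD of each group (black marks). High-dose livers spread from 4654 to 17157 CPM, below every vehicle liver.

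Cell markers moved over the same contrast, as far as symbols allowed them to be followed. Of 11 pericentral hepatocyte markers 4 had a symbol, and by edgeR's quasi-likelihood test across all genes, with TMM scaling, Slc1a2 fell by 2.85 (SE 0.22, adjusted p = 3.05e-19) and Cyp1a2 fell by 1.26 (SE 0.19, adjusted p = 1.92e-08) on the log2 scale. The vehicle liver of cohort B with number 005 held 3672 CPM of Cyp1a2 against at most 607 CPM in the other vehicle livers, and without it Cyp1a2 fell by 0.97 (SE 0.15, edgeR adjusted p = 4.49e-08). Rhbg rose by 1.91 (SE 0.18, adjusted p = 8.39e-16). Glul fell by 0.33 (SE 0.09, adjusted p = 0.00148) on this scale but had a higher mean CPM at the high dose, 342 against 279. The endothelial marker Kdr, 1 of 7 with a symbol, fell by 1.05 (SE 0.10, adjusted p = 4.60e-15), and the lymphocyte marker Cd4, 1 of 7, rose by 1.15 (SE 0.08, adjusted p = 8.76e-21). Of the 8 macrophage markers, Adgre1 rose by 0.39 (SE 0.10, adjusted p = 0.000577) and Cd163 measured 0.02 (SE 0.10, adjusted p = 0.878). At the low dose Glul fell by 1.07 (edgeR adjusted p = 1.64e-15) and Cd4 rose by 0.52 (edgeR adjusted p = 5.09e-07). No other marker with a symbol passed 0.1 there. On the CPM scale that defined the members, the log2 ratio of the high-dose to the vehicle mean was -2.16 for Slc1a2, -0.91 for Cyp1a2 and 2.49 for Rhbg. On that scale it was -0.47 for Kdr, 1.78 for Cd4, 0.98 for Adgre1 and 0.59 for Cd163, with no test. No general or periportal hepatocyte, cholangiocyte, stellate cell or proliferation marker on the lists had a symbol, and the part of cell composition in the fall was not tested. The tubule marker Lrp2 averaged 14.3 CPM in vehicle liver and 4035 CPM in kidney.

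Treatment of the F0 grandsire, which the rule did not use, was compared across all 83 livers with F1 treatment and dose in the model. The main fit counted each liver as independent. F0 treatment was given to the grandsires, and the 83 livers descended from 17 F0 males, so p-values of that fit can be too small. By edgeR, at an adjusted p below 0.1 in genes whose normalized count averaged above 50, 11 of 69 members (15.9%) were called, against 11.4% of 12206 genes. Without the first necropsy date 5 members (7.25%) were called, against 7.22% of genes, so the share of members was then that of all genes. Called members were higher with a treated grandsire in 10 cases and lower in 1, against 6.03% and 5.37% of all genes. The median over the members was 0.12 and over all genes 0.00, and 58 of 69 members were above 0. Members share libraries and grandsires, so they are not independent measurements. All 10 members with a symbol were called, but their symbols came from lists the study drew mostly from an F0 difference in these same livers, so that is no independent support. The remaining call was ENSRNOG00000055518.1, higher by 0.43 (SE 0.10, adjusted p = 0.00564).

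Of the members, Oaf had the largest F0 difference, 0.56 (SE 0.10, edgeR adjusted p = 4.99e-05). Its vehicle livers averaged 86.5 ± 29.8, 107 ± 39.9, 144 ± 33.97 and 155 ± 17.3 CPM in cohorts A, B, C and D (SD, n = 7, 7, 6 and 7), and its high-dose livers 56.8, 59.5, 76.8 and 76.0 CPM (n = 7 each). Both cohorts with a treated grandsire were above both without at each dose. Gucy1b2 was higher by 0.53 (SE 0.12, edgeR adjusted p = 0.00157), with 23.1, 28.3, 36.2 and 36.1 CPM in the vehicle livers of cohorts A to D. Tent5c alone was lower, by 0.45 (SE 0.11, edgeR adjusted p = 0.00589), with 12.7, 9.35, 9.36 and 7.87 CPM in the same order, where cohorts B and C did not differ beyond their spread. Vwce and Paqr7 were higher by 0.47 and 0.45, and Efna5 and Efnb2 by 0.30 and 0.19 with adjusted p-values of 0.0910 and 0.0824, close to the limit. Without the first necropsy date Vwce and Paqr7 lost their calls (edgeR adjusted p = 0.106 and 0.113), as did Fahd1, Efna5 and Efnb2, and without the second Tent5c did (-0.32, edgeR adjusted p = 0.109), with Fahd1, Eml5 and Efnb2. These were the highest adjusted p-values of Vwce, Paqr7 and Tent5c over all alternatives, and the lowest were 0.00105, 0.00221 and 0.00191. The calls of Efna5 and Efnb2 did not hold either with the replicate number as a block (edgeR adjusted p = 0.149 and 0.183) or with the F0 sire as a correlated block (limma adjusted p = 0.257 and 0.196). Over all alternatives the adjusted p ran from 0.0132 to 0.725 for Efna5 and from 0.0432 to 0.392 for Efnb2.

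**Figure D5:**
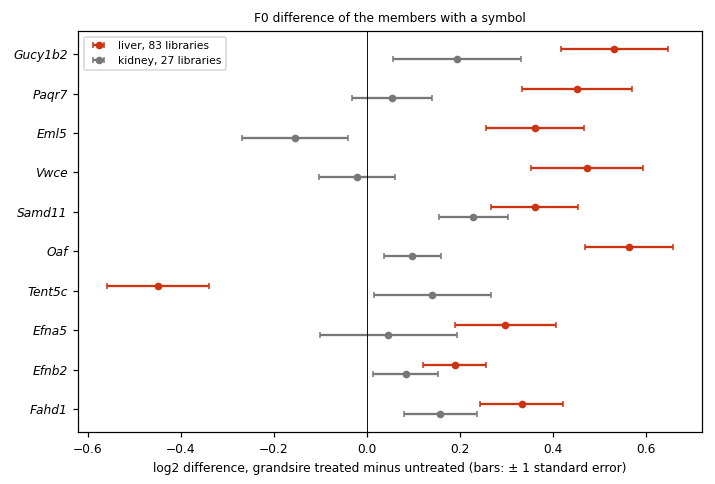
Log2 difference between rats with a treated and an untreated F0 grandsire (points) with 1 standard error to each side, in liver (red, 83 libraries) and kidney (grey, 27 libraries), for the 10 members with a symbol. The liver differences run from -0.45 for Tent5c to 0.56 for Oaf and the kidney differences from -0.15 to 0.23.

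The F1 sire left no call among the members. None of 69 passed edgeR's test or DESeq2's, with 9 of 12206 genes called by edgeR (0.0737%), a median of 0.00, and 2 members under an unadjusted p of 0.05 against 11.6% of all genes. Samd11 was the nearest, at 0.23 (SE 0.09, adjusted p = 0.388).

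Whether the fall itself depended on the ancestors was tested as the difference of the high-dose effect between cohorts. For the grandsire, neither edgeR nor DESeq2 called a member, edgeR called no gene of the whole table (0.00%), and 3 members had an unadjusted p under 0.05 against 5.40% of all genes. The median over members was 0.29, a smaller fall with a treated grandsire, and over all genes 0.00. This median ranged from 0.12 without the second necropsy date to 0.44 without the fourth, and the lowest adjusted p of any member was 0.761. Eml5 had a difference of 0.49 (SE 0.26, adjusted p = 0.941) and Gucy1b2 of 0.30 (SE 0.29, adjusted p = 0.99995), so a difference of that size was not resolved from 0. For the sire no member was called either by edgeR or by DESeq2, with no gene of the whole table called by edgeR (0.00%), 3 members at an unadjusted p under 0.05 against 10.3% of all genes, and a median of -0.01. With the replicate block 9 genes of the whole table were called, none of them a member. Leaving out the 2 high-dose livers that stood apart moved that median to 0.22, still without a call. Eml5 had a difference of -0.58 (SE 0.26, adjusted p = 0.410) and Fahd1 of -0.47 (SE 0.22, adjusted p = 0.434), where a negative value is a larger fall with a treated sire, and neither passed.

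In kidney, measured in vehicle rats only, no member was called for the F0 grandsire or the F1 sire by edgeR or DESeq2. The whole table held 2 calls of 12872 genes for F0 (0.0155%), or 6 with the replicate block, and 0 for F1 (0.00%). Unadjusted p-values under 0.05 occurred in 6 members for F0, against 9.30% of all genes, and in 4 for F1, against 6.65%. The F0 differences of the members with a symbol ran from -0.15 (SE 0.11) for Eml5 to 0.23 (SE 0.07, adjusted p = 0.369) for Samd11. Oaf, the largest in liver, measured 0.10 (SE 0.06, adjusted p = 0.655), with kidney means of 44.6, 47.0, 47.7 and 51.5 CPM in cohorts A to D. The difference between the organs was not tested.

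The average transcript length, a separate deposited value that shifts when a gene uses longer or shorter transcripts, changed little. No member passed an adjusted p below 0.1 with an absolute log2 difference over 0.2 by limma at the high dose, where 62 of 18982 genes did (0.327%), or at the low dose, where 5 did (0.0263%). Unadjusted p-values under 0.05 were seen in 17 members at the high dose, against 27.1% of all genes, and in 3 at the low dose, against 2.76%. The high-dose differences of the members lay between -0.18 and 0.09. Their smallest adjusted p at that dose was 2.12e-18 by limma, so shifts under the size limit did occur. Gucy1b2, at an average of 2322 bases, differed by 0.00, and Eml5, at 5870 bases, by 0.02 (SE 0.0038, adjusted p = 0.000121), which was under the size limit.

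None of the 10 members with a symbol belonged to the lists of peroxisomal, fatty acid oxidation, amino acid, carbohydrate, P450, conjugation, transporter, transcription factor, clock, receptor or antioxidant genes. Of the lists of fixed length, the best covered was the clock with 8 of 20 genes (40.0%), so whether the 69 hold more or fewer genes of any pathway could not be counted.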

How the data were processed

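RNA of liver and kidney was sequenced for the study by Genesupport/FASTERIS from poly(A)-selected stranded libraries and quantified with Salmon 0.14.0 against rat transcripts. The deposited values are estimated counts per gene, rounded to whole numbers, and the average transcript length of each gene, deposited as other values in bases. No depth normalization had been applied to the counts.

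CPM was computed from the column totals and defined the members. The members and gene lists were chosen with earlier results of these data known, so the dose ratios are described without a test. Symbols came from the study's lists.

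Tests used counts of genes with over 10 reads in at least 1 group and edgeR 4.0.16 (quasi-likelihood, TMM) in R 4.3.3, with Benjamini-Hochberg adjusted p under 0.1 and, for F0 and F1, a mean normalized count over 50. All 69 members passed these filters. Lengths were tested with limma 3.58.1. The functions were tested on simulated data. Replicate numbers carried litter and day: by the pedigree in the study's methods, each number had 1 necropsy date, and 59 of 77 pairs of livers with the same number and cohort but different doses were littermates. Deviations from the group means correlated by 0.091 on average over the 77 pairs (lowest -0.27), against -0.012 between other numbers of a cohort.

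Named are the members with a symbol, up to 5 called members per test, the genes at the limit of the rule, and markers. Alternatives were DESeq2 1.42.0, other scalings, filters and blocks, and leaving out necropsy dates. No library columns were left out.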

Additional observations from a re-analysis of the deposited data

Results flagged for a closer look

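Livers and kidneys that stood apart from their own group of 6 or 7 were sought for the 10 members with a symbol, the 2 members with the largest fall and the summed level of the set. This gave 208 tests, 1 for each of 13 quantities in each of 16 groups, and 22 were past Dixon's criterion, where chance alone flags about 5% of tests. Several libraries were flagged for more than 1 quantity, so the 22 are not independent. Each value is given in CPM with the nearest of the other libraries of its group.

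The high-dose liver of cohort C with replicate number 007 was high for Gucy1b2 (26.6, nearest 13.7), Paqr7 (116, nearest 57.4), Eml5 (11.1, nearest 7.59), Samd11 (12.8, nearest 7.45), ENSRNOG00000025648.3 (613, nearest 129) and the summed level (16980, nearest 11526). The high-dose liver of cohort A with number 010 was high for Paqr7 (71.4, nearest 46.5) and the summed level (15112, nearest 10231). In cohort B at the high dose, number 010 was high for Vwce (6.55, nearest 4.57) and ENSRNOG00000025648.3 (276, nearest 87.0), and number 007 for Efnb2 (8.63, nearest 5.31).

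At the low dose, Samd11 was high in cohort A number 009 (15.2, nearest 9.71) and Tent5c in cohort B number 005 (27.03, nearest 10.5). Among vehicle livers, Paqr7 was high in cohort B number 001 (150, nearest 111) and in cohort C number 002 (230, nearest 120), Tent5c in cohort B number 009 (17.7, nearest 10.5) and ENSRNOG00000020467.4 in cohort D number 005 (37.2, nearest 19.1). Eml5 was low in the vehicle liver of cohort D number 004 (8.41, nearest 14.4).

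Among kidneys, Gucy1b2 was high in cohort C number 009 (78.3, nearest 45.5), Efnb2 in cohort C number 007 (37.3, nearest 29.6) and Efna5 in cohort A number 007 (9.25, nearest 6.38), and Eml5 was low in cohort C number 001 (2.41, nearest 4.20).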

How the results depend on the processing

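The number of members depended on scaling: with TMM-normalized CPM 398 genes passed the limits and the 200 with the largest fall, the maximum of the rule, held 32 of the 69, with 25 members past the low-dose limit and 20 past the organ limit on that scale. Within cohort B alone, added after seeing the data, it gave 112 genes, 54 of them members, and under the other alternatives 62 to 82. The count of members called for the F0 grandsire was 11 (15.9%, against 11.4% of all genes). Later pairs in brackets give the share of members and then of all genes. It was 5 (7.25%, 7.22%) without the first necropsy date and 8 (11.6%, 9.59%) without the second. Without the third date it was 12 (17.4%, 8.79%) and without the fourth 8 (11.6%, 4.79%). It was 9 with the F0 sire as a correlated block, 9 without the 2 high-dose livers that stood apart, 12 without the vehicle liver that stood apart and 13 without the high-dose liver of cohort D with number 007, left out after seeing the data. None of the 10 members with a symbol, the only ones followed singly, changed sign. Oaf, Gucy1b2 and Samd11 kept their call under all 15 alternatives for F0. The replicate block gave 10 called members (14.5%, 8.37%), 9 of them shared with the 11 and without Efna5 and Efnb2, and changed no other count of members. The counts of 0 members held under every alternative run.

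Over all genes, F0 calls in liver went from 1392 to 885 and 587 without dates 1 and 4 in turn, and to 982 with the sire block. F1 calls went from 9 to 18 with the date as a factor, 2 with the sire block, 2, 112 and 1 without date 1, 2 and 4, and 16 without the 2 high-dose livers. Calls for the high-dose difference with F0 went from 0 to 13 by DESeq2, and with F1 from 0 to 76 by DESeq2, 6 with length offsets, 7 with the stricter filter, 9 with the replicate block, 1 without the fourth date and 4 without the vehicle liver that stood apart. F0 calls in kidney went from 2 to 50 by DESeq2, 6 with the replicate block, 7 with the date as a factor, 1 with length offsets or the sire block, and 0 without a filter or without date 1, 2 or 4, and F1 calls from 0 to 1 with the sire block. The causes were not tested. Pathway list counts were not run under other settings, since too few listed genes had a symbol. Of the 69 members, 23 averaged under 20 CPM in vehicle liver.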
